A study of Mus musculus with 16 samples.

Results

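Loss of Axin2 was examined in skull-roof bone that kept both alleles of Runx2, by setting calvaria of mice without Axin2 against calvaria of wild-type mice. The arrays were chosen by their genotype labels. They comprised 3 arrays labelled A-KO, leaving out the one that its label describes as damaged, and 4 arrays labelled WT, which makes 7 of the 16 arrays of the series. The series measured RNA of calvaria from male mice at postnatal day 7 on single-colour Illumina bead arrays, 1 mouse an array. A-KO mice were Axin2-/- with both Runx2 alleles, and WT mice carried neither defect. R-Het mice were Runx2+/-, and A-KO R-Het mice were Axin2-/- and Runx2+/-. The last pair, with 4 arrays each, served to set the same loss of Axin2 beside the first comparison on arrays that it does not share. The sources used here give neither the strain nor the kind of Axin2 allele. Each array held the RNA of a whole piece of calvaria, so bone, marrow, vessels and any attached muscle were measured together.

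Axin2 is a scaffold of the complex that marks beta-catenin for destruction, and its own gene is switched on by Wnt signalling, so it acts as a feedback inhibitor of that pathway. In the skull roof of the mouse it is known from the sutures, the fibrous joints between the flat bones, where its loss is associated with early closure. The flat bones also hold marrow, in which precursor B cells, granulocytes and red cells are formed beside stromal cells that supply chemokines such as Cxcl12.

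Levels are given as log2 of the deposited intensity, and differences as A-KO minus WT on the log2 scale ± standard error, with n = 3 and 4. The test was limma across 9918 genes, each read by 1 probe whose value exceeded the array median on 3 or more of the 15 arrays used, and a gene was said to rise or fall when its Benjamini-Hochberg adjusted p was under 0.05. Array medians were 92.9 to 95.5 in intensity. The damaged array reached 80920 and correlated with those used at 0.919 in mean, against 0.976 to 0.985 among them. The median over genes of the SD within a group was 0.136 in WT and 0.122 in A-KO. Of 30 osteoblast and bone matrix markers, 26 passed the filter, among them Col1a1, Bglap and Sp7. Whether the single Axin2 probe lies inside the deleted stretch is not stated in the sources used here, and its level therefore checks no label. It read 7.61, 7.42, 7.77 and 7.88 in WT replicates 1 to 4, and 7.67, 7.26 and 7.51 in A-KO replicates 1, 3 and 4. The groups overlapped, and the difference was -0.19 ± 0.12 (adjusted p = 0.549). Runx2 is not analysed here.

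Without Axin2, genes of precursor B cells and the chemokine Cxcl12 fell, while single enzymes of sterol and lipid synthesis, the cyclin Ccnd1 and a few others rose. In all, 31 of the 9918 genes passed the threshold, which is 0.313% of those tested. Of these, 8 were higher in A-KO (0.0807%) and 23 lower (0.232%). The rises lay between 1.42-fold and 1.66-fold, and the falls between 1.38-fold and 3.17-fold. For each of the 31, every A-KO array lay beyond all WT arrays, a condition that 1383 of all tested genes met (13.9%). An unadjusted p under 0.05 was reached by 1257 genes (12.7%), of which 702 were higher (7.08%) and 555 lower (5.6%). The call rests on few arrays. It numbered 4 genes without A-KO replicate 1, 11 without A-KO replicate 3 and 10 without A-KO replicate 4. Leaving out WT replicate 1, 2 or 3 gave 9, 19 and 15 genes, and leaving out WT replicate 4 gave 59. The arrays of Runx2+/- mice enter through the filter, the choice of probe and the shared estimate of spread. With the same genes and probes kept, the count was 69 without R-Het replicate 4 and 75 without A-KO R-Het replicate 1. It was 16 when A-KO R-Het replicate 3 was left out, and 16 again for replicate 4 of that group. With the damaged array kept it was 0, with 1115 genes at an unadjusted p under 0.05. Mzb1, Abca5, Cxcl12 and Vpreb1 passed the threshold in each of the 15 fits that left out 1 array.

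The largest fall among the genes past the threshold was that of Vpreb1, a component of the surrogate light chain with which precursor B cells build their first receptor. It read 8.59, 8.42, 8.20 and 8.09 in WT replicates 1 to 4 and 6.67, 6.49 and 6.82 in A-KO replicates 1, 3 and 4. Every A-KO array lay more than a log2 unit under the lowest WT array, and the mean difference was -1.67 ± 0.21, or 3.17-fold (adjusted p = 0.00125). Vpreb1 has a near-identical copy, Vpreb2, whose own probe did not pass the filter, so it is uncertain how the signal divides between the copies. Mzb1, a chaperone of the endoplasmic reticulum in antibody-making cells, had the smallest p of all genes. It stood at 7.69, 7.95, 8.0 and 7.67 in WT and at 6.39, 6.59 and 6.67 in A-KO, again with no overlap (-1.28 ± 0.14, adjusted p = 0.00112). In bulk tissue, fewer cells of a type and less RNA per cell cannot be told apart.

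Of the 33 genes listed for precursor and mature B cells, 19 were tested, and 7 of them fell. Beside Vpreb1 and Mzb1 these were Cd79b and Cd79a, the signalling chains of the B cell receptor, Vpreb3, an assembly partner of the receptor's heavy chain, Pou2af1, the coactivator of octamer-binding factors, and Irf4, a transcription factor of B cells and plasma cells. Cd79b read 7.87, 8.12, 8.48 and 7.59 in WT against 6.50, 6.72 and 6.98 in A-KO (-1.28 ± 0.21, adjusted p = 0.0149), and a second probe of the gene differed by -0.91. For Vpreb3 the WT arrays read 7.49, 7.64, 8.24 and 7.35 and the A-KO arrays 6.09, 6.28 and 6.64 (-1.34 ± 0.24, adjusted p = 0.0309). Pou2af1 stood at 7.08, 7.24, 7.63 and 6.93 in WT and 6.19, 6.17 and 6.32 in A-KO (-0.99 ± 0.16, adjusted p = 0.0149). In these genes WT replicate 3 was the highest array, and no A-KO array reached the lowest WT array. Cd79a differed by -0.87 ± 0.17 (adjusted p = 0.0469) and Irf4 by -0.74 ± 0.13 (adjusted p = 0.0309), also without overlap. Array medians lay at 6.54 to 6.58 on the log2 scale, and Pou2af1, Irf4 and Jakmip1, named below, lay under the median on all 3 A-KO arrays. Another 7 of the 23 falling genes, Vpreb1, Mzb1, Cd79a, Cd79b and Vpreb3 among them, did so on some A-KO arrays. The values used carry no detection call, so whether these A-KO levels stood above background was not tested.

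The remaining 12 tested B cell genes lay below 0 too, so that 19 of 19 were lower in A-KO, against 48.3% of all tested genes. Their median difference was -0.44, against 0.01 over all genes, and the lists were chosen with earlier results of these data known. For 14 of the 19 the arrays did not overlap, against 6.32% of all genes in that direction. The fall was uneven within the list: its members ranged from -1.67 to -0.01. Fcrla, a B cell protein related to Fc receptors, stood at -1.11 ± 0.27 (adjusted p = 0.0868), and Tnfrsf13c, the receptor for the B cell survival factor BAFF, at -0.52 ± 0.13 (adjusted p = 0.0852); both were chosen after their values were seen. The mean log2 level of the 19 genes was 6.88 to 7.35 on the WT arrays and 6.42 to 6.53 on the A-KO arrays. Of 9 plasma cell genes 5 were tested, and Mzb1 and Irf4 fell, while the other 3 lay between 0.17 and 0.25. Of 17 T and NK cell genes 3 were tested, none passed the threshold, and the probes of Cd3d, Cd3e, Cd3g, Cd4 and Cd8a did not pass the filter.

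**Figure D1:**
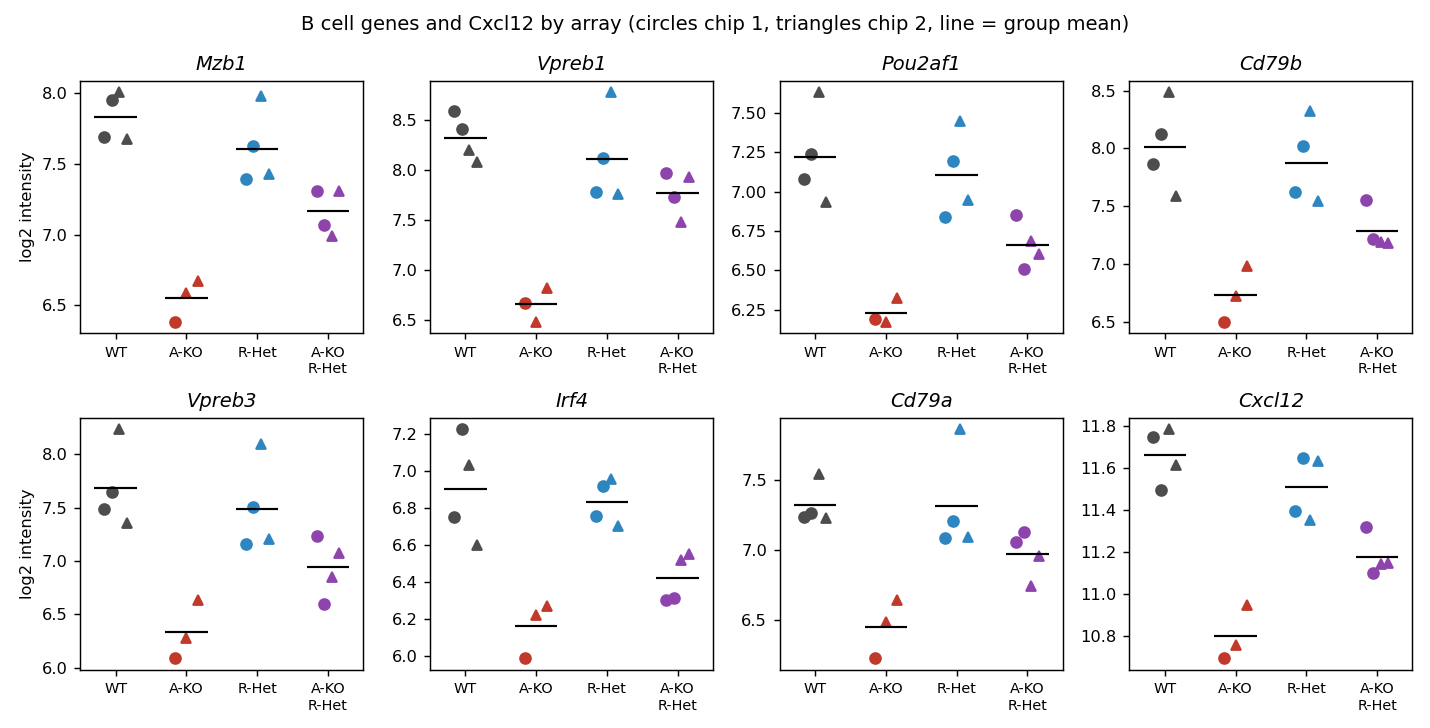
Log2 intensity (vertical axis, a separate range in each panel) of the 7 B cell genes that fell and of Cxcl12, by genotype, with 1 point an array, circles for chip 1, triangles for chip 2 and a line at each group mean. The 3 A-KO arrays lie under all 4 WT arrays in every panel, and the A-KO R-Het arrays lie between A-KO and R-Het in mean.

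The promoters of Vpreb1, Vpreb3 and Cxcl12 are shown because these genes were among the falls and a regulatory word of B cells or of Wnt signalling can be looked for in them. Each stretch is the 250 bases before the start of the gene in RefSeq's table for GRCm38.p6, read 5′ to 3′ on the gene's strand, with matches in capitals. They lie at chr16:16869256-16869505 on the minus strand, chr10:75948050-75948299 on the plus strand and chr6:117168285-117168534 on the plus strand.
Vpreb1: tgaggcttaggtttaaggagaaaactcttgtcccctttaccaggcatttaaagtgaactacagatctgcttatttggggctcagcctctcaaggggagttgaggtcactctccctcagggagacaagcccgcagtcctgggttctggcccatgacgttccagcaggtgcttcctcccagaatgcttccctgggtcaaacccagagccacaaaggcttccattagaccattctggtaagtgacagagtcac
Vpreb3: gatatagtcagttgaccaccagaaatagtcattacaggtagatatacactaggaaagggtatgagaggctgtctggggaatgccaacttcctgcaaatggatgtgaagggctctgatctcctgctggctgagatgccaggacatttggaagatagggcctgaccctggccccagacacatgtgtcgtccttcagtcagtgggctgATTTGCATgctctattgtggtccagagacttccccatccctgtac
Cxcl12: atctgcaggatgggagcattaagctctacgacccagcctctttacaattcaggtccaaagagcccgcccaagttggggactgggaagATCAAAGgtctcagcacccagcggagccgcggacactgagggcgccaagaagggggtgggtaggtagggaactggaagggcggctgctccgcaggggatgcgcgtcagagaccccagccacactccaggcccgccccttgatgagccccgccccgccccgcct
The words searched, on both strands and in 250 bases before to 50 after the start, were the octamer ATGCAAAT, the TCF/LEF words CTTTGAA and CTTTGAT, and the palindromic motif of EBF, a factor of early B cells. Vpreb3 held the octamer with its first base at -45, and Cxcl12 held the TCF/LEF word CTTTGAT at -163, both read on the other strand. Vpreb1 held none of them. Promoters on the chromosome that carries Mzb1 were left out of the search and of all counts here. Of 27025 genes with a promoter in the rest of the table, 1.97% held the octamer, 9.88% a TCF/LEF word and 1.06% the EBF motif. Among the 8009 of these that were tested, the shares were 1.69%, 7.25% and 1.31%. Promoters were found for 24 of the 31 genes. Among the 18 of these that fell, 2 held the octamer (Vpreb3 and Srgn), 1 a TCF/LEF word (Cxcl12) and 0 the EBF motif. The promoters shown thus hold matches more often than those of the falling genes as a whole. In the 6 that rose none of the words was found. A match is a description of the letters and not of binding.

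Other genes known from lymphocytes and blood cells fell as well. Klhl6, a gene of B cell receptor signalling, read 9.38, 9.48, 9.57 and 9.33 in WT and 8.84, 9.0 and 8.88 in A-KO (-0.53 ± 0.08, adjusted p = 0.0149). Cytip, which regulates the adhesion of lymphocytes and dendritic cells, read 8.84, 9.36, 8.87 and 8.46 against 7.65, 7.78 and 8.04 (-1.06 ± 0.21, adjusted p = 0.0489). Srgn, the proteoglycan core of blood cell granules, differed by -0.58 ± 0.12 (adjusted p = 0.0491). Sla, an adaptor that dampens antigen receptor signalling, fell by 0.52 on the log2 scale, Lrmp, a membrane protein of lymphoid cells, by 0.60, and Tbc1d10c, an inhibitor of calcineurin in lymphocytes, by 0.54. The arrays of the groups did not overlap in any of these 6 genes. Cytip was the only one of 12 tested genes of the dendritic cell and lymphoid adhesion list to pass the threshold. The list's median was -0.28, and Plac8 at -1.13 ± 0.24 (adjusted p = 0.0555) and Coro1a, an actin regulator of blood cells, at -0.57 ± 0.12 (adjusted p = 0.053) were named after their values were seen.

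In the neutrophil, erythroid, mast cell and eosinophil, and macrophage lists no gene passed the threshold, although all 4 lists lay low. The 18 tested neutrophil genes were all below 0, against 48.3% of all tested genes, with a median of -0.78. Of these, 10 had an unadjusted p under 0.05, against 5.6% of all genes in that direction. Mpo, the granule peroxidase, read 9.69, 9.69, 9.41 and 9.04 in WT and 7.96, 7.27 and 8.73 in A-KO (-1.47 ± 0.47, adjusted p = 0.185). Ctsg, a granule protease, stood at -1.13 ± 0.32 (adjusted p = 0.136), Retnlg at -1.05 ± 0.33 (adjusted p = 0.179) and Ms4a3 at -0.42 ± 0.14 (adjusted p = 0.205). Among the A-KO arrays, replicate 4 was nearest to WT in Mpo. The 12 tested erythroid genes were all below 0 as well, with a median of -0.62 and 8 at an unadjusted p under 0.05, against the same shares of all genes. Slc4a1, the anion exchanger of red cells, had the largest difference of all genes tested. It read 10.77, 11.61, 11.21 and 10.82 in WT and 8.21, 8.89 and 8.77 in A-KO, without overlap, yet its SE was 0.68 (-2.48, adjusted p = 0.127). Alas2, the first enzyme of haem synthesis in red cells, stood at -1.61 ± 0.38 (adjusted p = 0.0762), Tfrc, the transferrin receptor, at -0.68 ± 0.14 (adjusted p = 0.053) and Ermap, a membrane protein of red cells, at -0.57 ± 0.19 (adjusted p = 0.214).

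Of 9 tested mast cell and eosinophil genes 8 lay below 0, against 48.3% of all tested genes, with a median of -0.72. The median was -0.93 on chip 1 and -0.36 on chip 2, and -0.38 without WT replicates 1 and 3 and R-Het replicate 4. Cpa3, a mast cell protease, stood at -0.88 ± 0.32 (adjusted p = 0.258) and Mcpt4 at -0.72 ± 0.24. Hdc, the enzyme that makes histamine, stood at -0.78 ± 0.24 and Prg2, an eosinophil granule protein, at -0.89 ± 0.27. For Prg2 the groups overlapped, with WT replicate 4 at 6.71 and A-KO replicate 4 at 6.95. The macrophage and monocyte list of 15 had a median of -0.20, nearer to 0 than the lists above. Its lowest member was Lyz2, a lysozyme of macrophages and granulocytes, at -0.60 ± 0.16 (adjusted p = 0.12). Its close relative Lyz1 stood at -0.50 ± 0.17, Cd14, a receptor for bacterial lipopolysaccharide, at -0.42 ± 0.19 and Cd163, the haemoglobin scavenger receptor, at -0.27 ± 0.12, with adjusted p between 0.204 and 0.364. The median was -0.12 without WT replicate 2. Of the 10 largest differences downwards at an unadjusted p under 0.05, Ctse, an aspartic protease, at -1.55 ± 0.43 (adjusted p = 0.134), Trim10 at -1.35 ± 0.34 (adjusted p = 0.0922) and Ccl4, a chemokine of activated macrophages, at -1.31 ± 0.39 (adjusted p = 0.158) belong to none of these lists. The mean log2 level of the neutrophil list was 8.93 to 9.48 in WT and 8.21 to 8.82 in A-KO, and that of the erythroid list 8.73 to 9.36 and 8.16 to 8.21. For the mast cell and eosinophil list it was 7.06 to 7.67 and 6.66 to 6.96, and for the macrophage list 8.61 to 8.96 and 8.47 to 8.58. In each of these 4 lists the A-KO arrays thus lay under the WT arrays. The part that different amounts of marrow in the samples had in the lower B cell and blood genes was not tested.

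**Figure D2:**
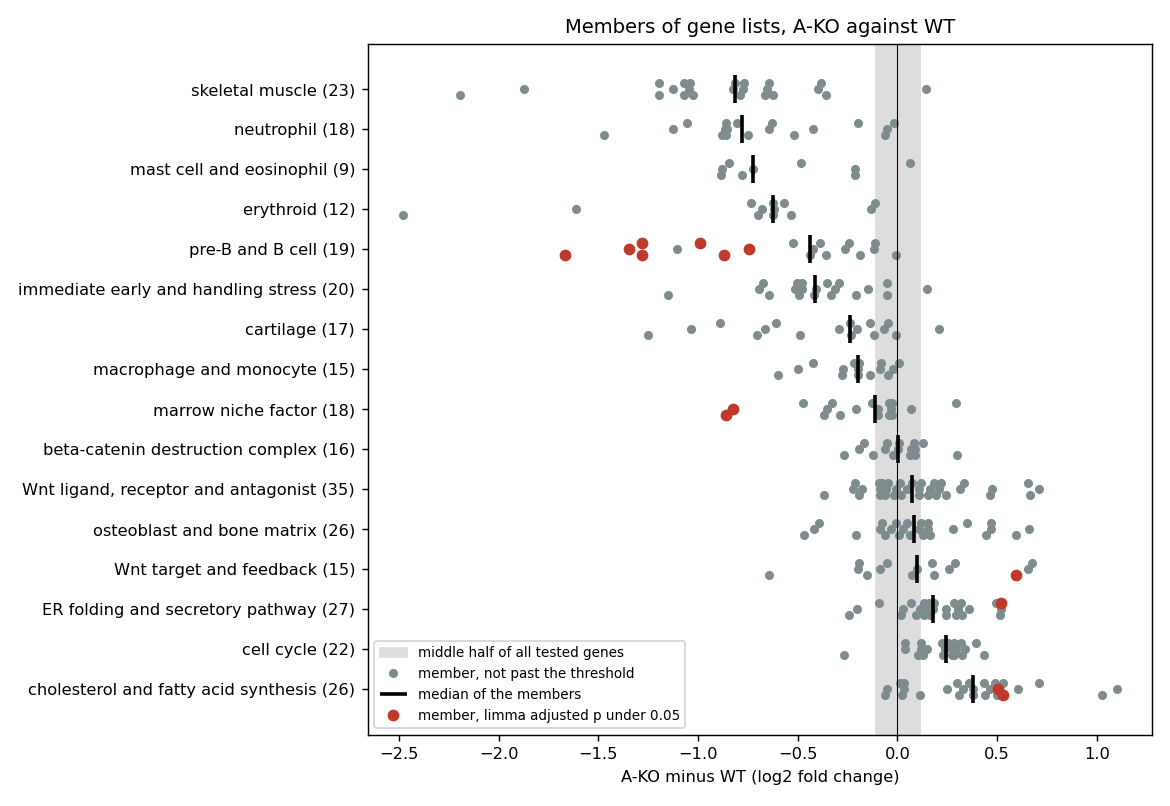
Difference between A-KO and WT (horizontal axis, log2 fold change) for each tested member of 16 gene lists, with the number of members in brackets; red points passed the threshold, black bars are list medians, and the grey band spans the middle 50% of all tested genes. The B cell list holds 7 red points at the left, while the cholesterol and fatty acid list, with a median of 0.38, lies right of the band.

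Among genes of the marrow niche, the stromal factors that hold blood precursors in place, Cxcl12 and Esr1 fell. Cxcl12, whose promoter is shown above, is the chemokine that retains B cell precursors and stem cells in marrow. It read 11.75, 11.50, 11.79 and 11.61 in WT and 10.69, 10.76 and 10.95 in A-KO. The lowest WT array was well above the highest A-KO array, and the difference was -0.86 ± 0.10, or 1.82-fold (adjusted p = 0.00125). Its other 2 probes that passed the filter differed by -0.61 and -0.65. Esr1, the oestrogen receptor alpha, read 7.55, 7.39, 7.79 and 7.69 against 6.38, 6.88 and 7.08 (-0.83 ± 0.15, adjusted p = 0.0309). The niche list of 18 tested genes had 16 members below 0, against 48.3% of all tested genes, and a median of -0.11. In it, 5 members had an unadjusted p under 0.05 downwards, against 5.6% of all genes. There were 4 with no overlap in that direction, against 6.32%. Its mean log2 level was 8.65 to 8.72 on the WT arrays and 8.37 to 8.55 on the A-KO arrays, which lay lower throughout. The median moved to -0.05 without A-KO replicate 1 and to -0.21 without A-KO replicate 4. Cxcr4, the receptor of Cxcl12, stood at -0.47 ± 0.14 (adjusted p = 0.161) and was chosen after its values were seen.

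The other genes that fell belong to no single list. Dner, a transmembrane ligand of Notch, read 9.32, 9.35, 9.40 and 9.01 in WT and 8.18, 8.59 and 8.20 in A-KO (-0.94 ± 0.19, adjusted p = 0.0489). Cldn10, a claudin of tight junctions, fell by 0.81 on the log2 scale (adjusted p = 0.036), with WT replicate 1 at 9.12 above the other WT arrays, which read 8.59 to 8.66. Its other 2 probes that passed the filter differed by -0.62 and -0.26. Hsd11b1, which regenerates active glucocorticoid inside cells, differed by -0.46 ± 0.09 (adjusted p = 0.0489), the smallest of the falls. Slc9a3r1, a membrane scaffold, fell by 0.70, Tulp2 by 0.71, Acss1, a mitochondrial acetyl-CoA synthetase, by 0.68 and Jakmip1 by 0.64 on the same scale. Lyplal1 fell by 0.60, but a second probe of it that passed the filter differed by only -0.05, so its probes disagree.

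On the higher side, genes of cholesterol and fatty acid synthesis lay high together, with 2 of 26 tested members past the threshold. Lss, which closes the rings of lanosterol, read 6.76, 6.74, 6.59 and 6.76 in WT and 7.34, 7.17 and 7.21 in A-KO (0.53 ± 0.11, adjusted p = 0.0489). Agpat2, an acyltransferase on the way to triglycerides and phospholipids, read 7.53, 7.32, 7.65 and 7.49 against 7.98, 7.88 and 8.14 (0.50 ± 0.09, adjusted p = 0.0372). Neither gene showed an overlap of the groups. In the list 24 of 26 members lay above 0, against 5128 of all 9918 tested genes. An unadjusted p under 0.05 upwards was reached by 14, against 7.08% of all genes. For 14 the arrays did not overlap, against 7.62% of all genes in that direction. The median difference was 0.38, against 0.01 over all genes. Mean log2 levels of the list were 7.91 to 8.22 on the WT arrays and 8.31 to 8.50 on the A-KO arrays.

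The larger differences in this list had wider errors. Fdps, the synthase of farnesyl diphosphate, read 8.91, 9.52, 8.78 and 9.0 in WT and 10.28, 10 and 10.17 in A-KO (1.10 ± 0.26, adjusted p = 0.0782). Sqle, squalene epoxidase, read 8.55, 9.16, 8.38 and 8.61 against 9.88, 9.49 and 9.73 (1.02 ± 0.22, adjusted p = 0.053). In both, WT replicate 2 was the highest WT array and still lay under the A-KO arrays. Cyp51, the lanosterol demethylase, stood at 0.71 ± 0.17 (adjusted p = 0.0869) and Scd1, a desaturase of fatty acids, at 0.49 ± 0.11 (adjusted p = 0.0579). Srebf2, the transcription factor that drives the sterol pathway, stood at 0.53 ± 0.11 (adjusted p = 0.053) and Hmgcs1, the synthase at its entry, at 0.60 ± 0.15 (adjusted p = 0.092); these 2 were chosen after their values were seen. The members ranged from -0.06 to 1.10.

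**Figure D3:**
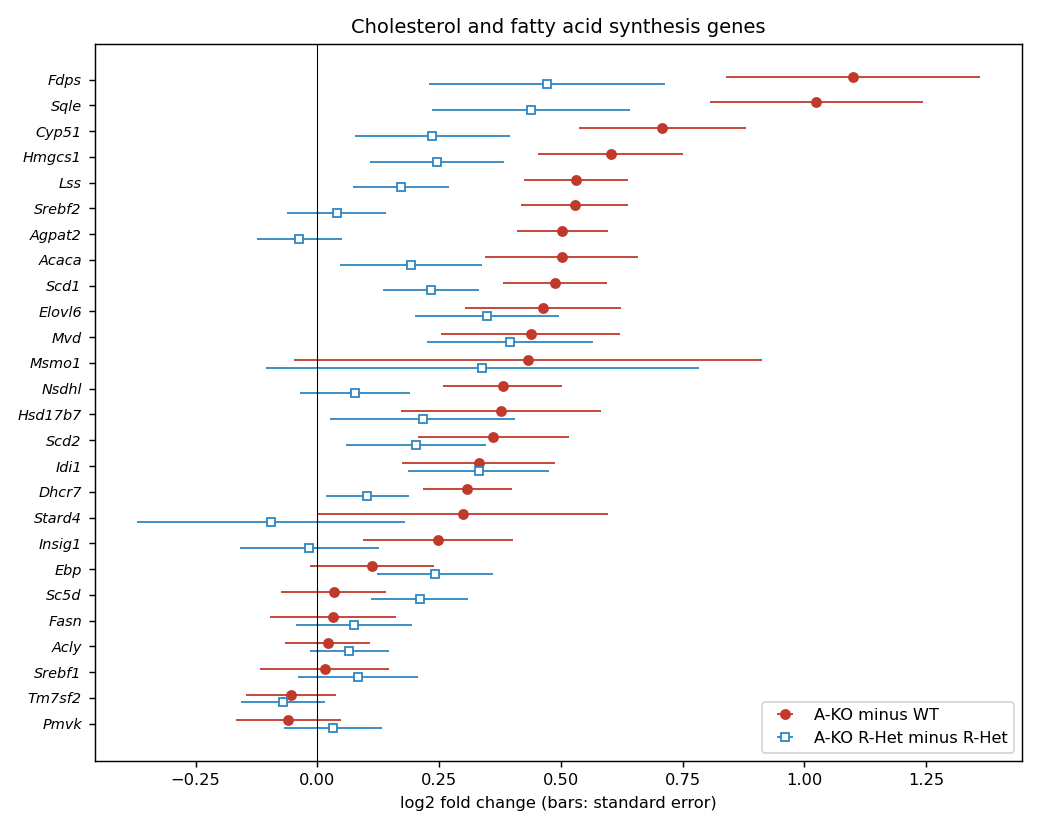
Difference made by Axin2 loss (horizontal axis, log2 fold change, bars are standard errors) for the 26 tested genes of cholesterol and fatty acid synthesis, with both Runx2 alleles (filled) and on arrays of Runx2+/- mice (open). Fdps and Sqle lie furthest right at 1.10 and 1.02, and the lowest member lies at -0.06.

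In the Wnt pathway itself, Ccnd1 was the only called gene among 15 tested targets and feedback genes, 16 members of the destruction complex and 35 ligands, receptors and antagonists. Ccnd1 encodes cyclin D1, which carries cells into division and is a known target of beta-catenin. It read 10.77, 10.60, 11.01 and 10.87 in WT and 11.52, 11.35 and 11.35 in A-KO (0.60 ± 0.11, adjusted p = 0.0434), and its other 2 probes differed by 0.39 and 0.41. The highest WT array, replicate 3, lay under every A-KO array. Notum, a secreted enzyme that inactivates Wnt ligands, read 7.33, 7.09, 7.66 and 7.57 against 8.18, 7.93 and 8.14 (0.67 ± 0.14, adjusted p = 0.0503). Lgr5, a receptor for R-spondins, stood at 0.66 ± 0.26 (adjusted p = 0.292), and both were chosen after their values were seen. The median of the target list was 0.10. Of its 15 members 9 lay above 0 and 6 below, against 48.3% of all tested genes below 0. The list ranged from -0.65 to 0.67, and the members named here are from its upper side. In it, 4 members had an unadjusted p under 0.05 upwards and 1 downwards, against 7.08% and 5.6% of all genes.

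Of the ligands, Wnt10a read 6.72, 6.56, 6.56 and 6.56 in WT and 7.41, 6.91 and 7.47 in A-KO (0.66 ± 0.14, adjusted p = 0.053). Wnt10b stood at 0.46 ± 0.12 (adjusted p = 0.098). Of the secreted antagonists, Dkk3 stood at 0.47 ± 0.12 (adjusted p = 0.0987) and Sostdc1 at 0.65 ± 0.21 (adjusted p = 0.19). In these 4 genes the A-KO arrays lay above the WT arrays, but none passed the threshold, and the list's median was 0.07. The destruction complex had a median of 0.005 and 0 members past the threshold, with 1 at an unadjusted p under 0.05. Its kinases lay on opposite sides, Gsk3a at 0.30 ± 0.10 (adjusted p = 0.202) and Gsk3b at -0.27 ± 0.15 (adjusted p = 0.494). Ctnnb1, which encodes beta-catenin, read 13.13, 13.04, 13.00 and 12.81 in WT and 12.99, 12.97 and 13.05 in A-KO, a difference of 0.01 ± 0.09 (adjusted p = 0.987).

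Genes of the secretory route lay above 0 in 24 of 27 cases, against 5128 of all 9918 tested genes, with a median of 0.18. Ddost, a subunit of the enzyme that adds sugar chains to new proteins, was the 1 member that rose. It read 9.71, 9.65, 9.61 and 9.79 in WT and 10.39, 10.14 and 10.11 in A-KO, with no overlap (0.52 ± 0.11, adjusted p = 0.0491). Sec23a, a coat protein of vesicles that leave the endoplasmic reticulum, stood at 0.52 ± 0.12 (adjusted p = 0.0656) and was chosen after its values were seen. Of 22 cell cycle genes 21 lay above 0, against the same share of all genes, with a median of 0.24. An unadjusted p under 0.05 upwards was reached by 9, against 7.08% of all genes, and none passed the threshold. Plk1, a kinase of mitosis, stood at 0.43 ± 0.16, E2f1, a transcription factor of the S phase, at 0.29 ± 0.08, Mcm5 at 0.32 ± 0.13 and Top2a at 0.34 ± 0.14. The adjusted p of these 4 lay between 0.141 and 0.316.

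**Figure D4:**
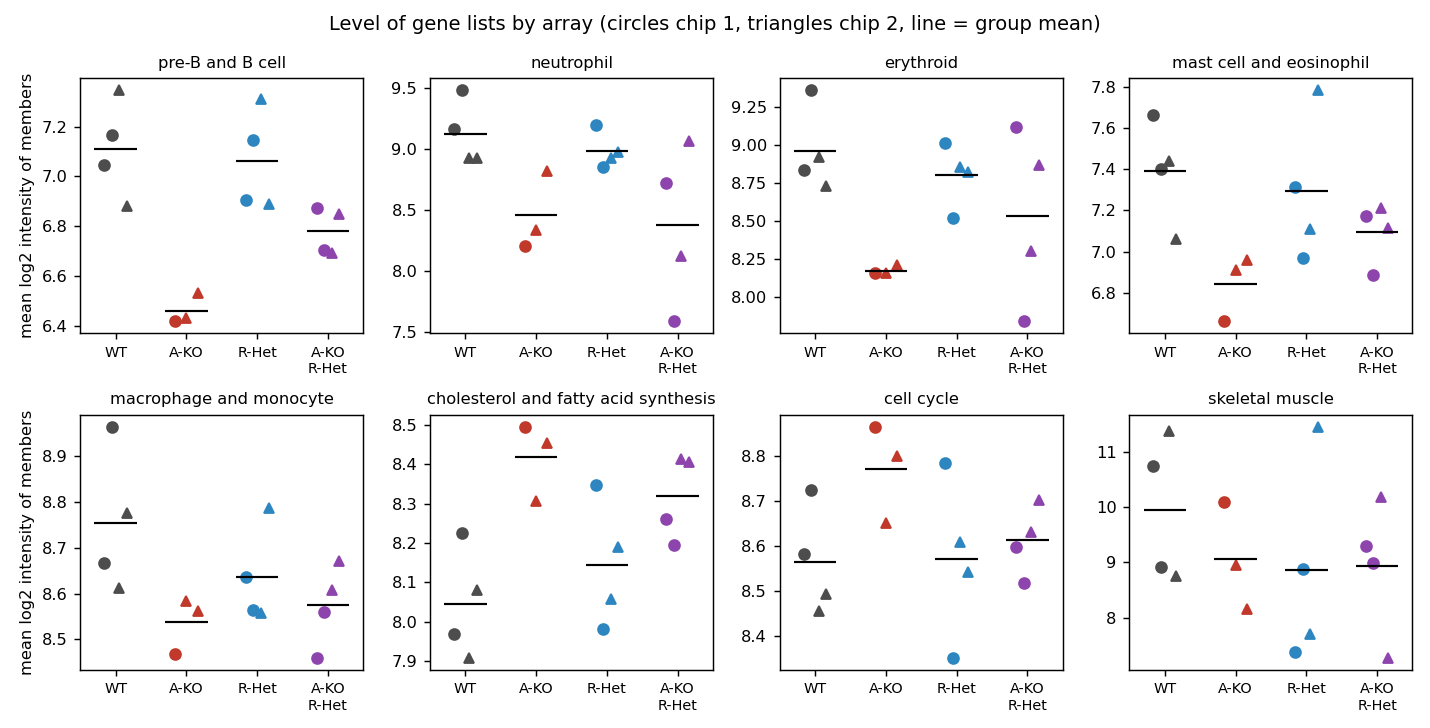
Mean log2 intensity of the tested members of 8 gene lists (vertical axis, a separate range in each panel) on each array by genotype, circles for chip 1, triangles for chip 2, with a line at each group mean. In the 5 blood lists the A-KO arrays lie under the WT arrays, in the cholesterol and fatty acid list above them, and the skeletal muscle list spreads from 8.76 to 11.37 within WT.

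Abca5, a lipid transporter of the ABC family, had the largest rise among the genes past the threshold. It read 6.38, 6.32, 6.53 and 6.61 in WT and 7.33, 7.11 and 7.14 in A-KO (0.73 ± 0.09, or 1.66-fold, adjusted p = 0.00125). A second probe, which did not pass the filter, differed by -0.21. Tnfrsf22, a decoy receptor for TRAIL in the mouse, read 8.62, 8.61, 8.65 and 8.71 against 9.40, 9.12 and 9.34 (0.64 ± 0.10, adjusted p = 0.0149). Dnajc17, a member of the DnaJ chaperone family, read 6.54, 6.49, 6.54 and 6.55 against 7.12, 7.17 and 7.11 (0.60 ± 0.10, adjusted p = 0.0188). Avil, an actin-binding protein, differed by 0.56 ± 0.10 (adjusted p = 0.0309). In each of these genes the groups stood clear of each other. Abca5 and Dnajc17, however, each lay at or under the array median on 3 of the WT arrays. Without a detection call, whether these WT levels stood above background was not tested.

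Of the genes with the largest rises that missed the threshold, Adh7, an alcohol and retinol dehydrogenase, came first. It read 5.70, 6.66, 5.74 and 6.01 in WT and 7.64, 7.07 and 7.13 in A-KO (1.25 ± 0.27, adjusted p = 0.053). WT replicates 1, 3 and 4 and all R-Het arrays lay under the array medians, which were 6.54 to 6.58 on the log2 scale. Whether these Adh7 levels stood above background was not tested, so the size of its rise is uncertain. Gsc, a homeobox gene of the developing face, read 7.64, 7.70, 7.83 and 8.07 against 8.88, 8.34 and 8.78 (0.86 ± 0.19, adjusted p = 0.0579). Tppp3, a tubulin-binding protein, stood at 0.87 ± 0.20 (adjusted p = 0.0579), Chst8 at 0.72 ± 0.22, Smpdl3b at 0.70 ± 0.16 and Pdxdc1 at 0.69 ± 0.29. The value for Pdxdc1 was -0.04 when the mean of its probes was taken. Genes of bone itself moved less as a group: of 26 osteoblast and bone matrix genes none passed the threshold, and the median was 0.08. Of these, 6 had an unadjusted p under 0.05 upwards and 3 downwards, against 7.08% and 5.6% of all genes. Ifitm5, a membrane protein of mineralizing osteoblasts, stood at 0.47 ± 0.10 (adjusted p = 0.0579), Phospho1, a phosphatase of mineralization, at 0.59 ± 0.19, Msx1, a homeobox gene of sutures, at 0.44 ± 0.13, and Omd, a keratan sulfate proteoglycan of bone, at -0.47 ± 0.14.

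Markers of tissue beside bone and marrow varied between arrays of 1 genotype. The mean log2 level of the 23 tested skeletal muscle genes was 10.74, 8.92, 11.37 and 8.76 in WT replicates 1 to 4 and 10.09, 8.95 and 8.15 in A-KO. The groups overlapped, the median difference was -0.82, no member had an unadjusted p under 0.05, and the median was 0.30 on chip 1 alone. With the muscle level as a covariate 34 genes were called, 27 of them among the 31. The median of 17 tested cartilage genes was -0.24, with 0 past the threshold, and that of 20 immediate early and handling stress genes -0.42, which became -0.13 without A-KO replicate 1 and -0.15 on chip 2 alone. Klf4 of the latter list stood at -0.49 ± 0.18 (adjusted p = 0.277) and Fosb at -0.51 ± 0.19 (adjusted p = 0.265). A-KO replicate 1 was lowest in the mean of that list at 10.05, the other A-KO arrays read 10.58 and 10.89, and the WT arrays read 10.83 to 10.94. The part of these tissues and of handling in the results was not tested.

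Each chip held both genotypes, with 2 WT arrays on each, 1 A-KO array on chip 1 and 2 on chip 2. With chip as a block 28 genes passed the threshold, 24 of them among the 31. On chip 2 alone limma called 0 genes, with 826 at an unadjusted p under 0.05. All 31 genes kept their direction on both chips, which was fixed in advance because no A-KO array overlapped the WT arrays in them. Chip 1 held a single A-KO array, so every chip 1 difference rests on that array and no count is given for it. The difference of Vpreb1 was -1.83 on chip 1 and -1.49 on chip 2, that of Mzb1 -1.44 and -1.21, that of Cxcl12 -0.93 and -0.85, and that of Abca5 0.98 and 0.56. Some lists differed more between chips. The neutrophil median was -1.34 on chip 1 and -0.32 on chip 2, and the erythroid median -0.87 and -0.44, whereas the B cell median was -0.48 and -0.52 and the cholesterol and fatty acid median 0.38 and 0.39.

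On chromosome 11, which carries Axin2, 3 of 852 tested genes passed the threshold, namely Abca5, Slc9a3r1 and Cd79b. Over the whole chromosome that is 0.352%, close to the 0.313% of all tested genes. In the order of tested genes, Abca5 was the 10th and Slc9a3r1 the 24th from Axin2 on one side, and Cd79b the 17th on the other. All 3 thus lay within 24 tested genes of Axin2, and no gene further away on the chromosome passed the threshold. Whether their place beside Axin2 bears on their differences was not tested.

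The same loss of Axin2 in Runx2+/- mice, A-KO R-Het against R-Het, shares no array with A-KO against WT. There limma called 0 genes (0%), with 641 at an unadjusted p under 0.05 (6.46%), 3.38% higher and 3.09% lower. Of the 31 genes, 29 had the same sign in both comparisons, against 57.4% of all tested genes. The 23 that fell were all below 0 there, as were 48% of all genes, and 6 of the 8 that rose were above 0, as were 52%, with Tnfrsf22 at -0.02 and Agpat2 at -0.04 as the exceptions. An unadjusted p under 0.05 in the same direction was reached by 19. Both comparisons come from the same fit and use the same estimate of each gene's spread. The 31 genes were called partly because that estimate was small, so the 19 are a description and no independent count. The differences were smaller: the median over the 31 genes of the ratio to the A-KO against WT value was 0.391, and since these genes were called in the latter comparison, its values were chosen to be large.

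Abca5 and Slc9a3r1, which lie on the same side of Axin2 on chromosome 11, had the 2 smallest p-values of all genes in Runx2+/- mice. Abca5 read 6.46, 6.51, 6.58 and 6.54 in R-Het and 7.0, 6.93, 7.08 and 7.08 in A-KO R-Het, again without overlap, as 1.48% of all genes did upwards (0.50 ± 0.08, adjusted p = 0.183). Slc9a3r1 differed by -0.51 ± 0.10 (adjusted p = 0.437). Vpreb1 read 7.78, 8.12, 8.78 and 7.77 in R-Het against 7.97, 7.73, 7.48 and 7.93 in A-KO R-Het, where the groups overlapped (-0.33 ± 0.19). Mzb1 stood at -0.44 ± 0.13, Cxcl12 at -0.33 ± 0.10 and Cd79b at -0.59 ± 0.19. Axin2 itself read 0.47 lower on the log2 scale (-0.47 ± 0.11, adjusted p = 0.602).

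The difference between the 2 comparisons was tested as an interaction, which called 0 genes (0%), with 611 at an unadjusted p under 0.05 (6.16%). Of the 31 genes 22 had an unadjusted p under 0.05 and 0 an adjusted one. The genes were called on A-KO minus WT, which is one side of the interaction, so the 22 are a description and no separate evidence of a difference. For Vpreb1 the interaction was 1.33 ± 0.28 (adjusted p = 0.743), and for Abca5 -0.24 ± 0.12 (adjusted p = 0.788). In Runx2+/- mice the median of the B cell list was -0.29, with 18 of 19 members below 0. That of the neutrophil list was -0.62 with 18 of 18, and that of the cholesterol and fatty acid list 0.20. The mean level of the neutrophil list was 8.855 to 9.195 on the R-Het arrays and 7.587 to 9.062 on the A-KO R-Het arrays. The groups thus overlapped in it, and in the mean of the cholesterol and fatty acid list, but not in that of the B cell list. The secretory list lay at -0.01 there and the cell cycle list at 0.03. The cartilage list, at -0.24 in A-KO against WT, lay at 0.45 there, with 1 of 17 members below 0. No test of a difference was made on these list medians.

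**Figure D5:**
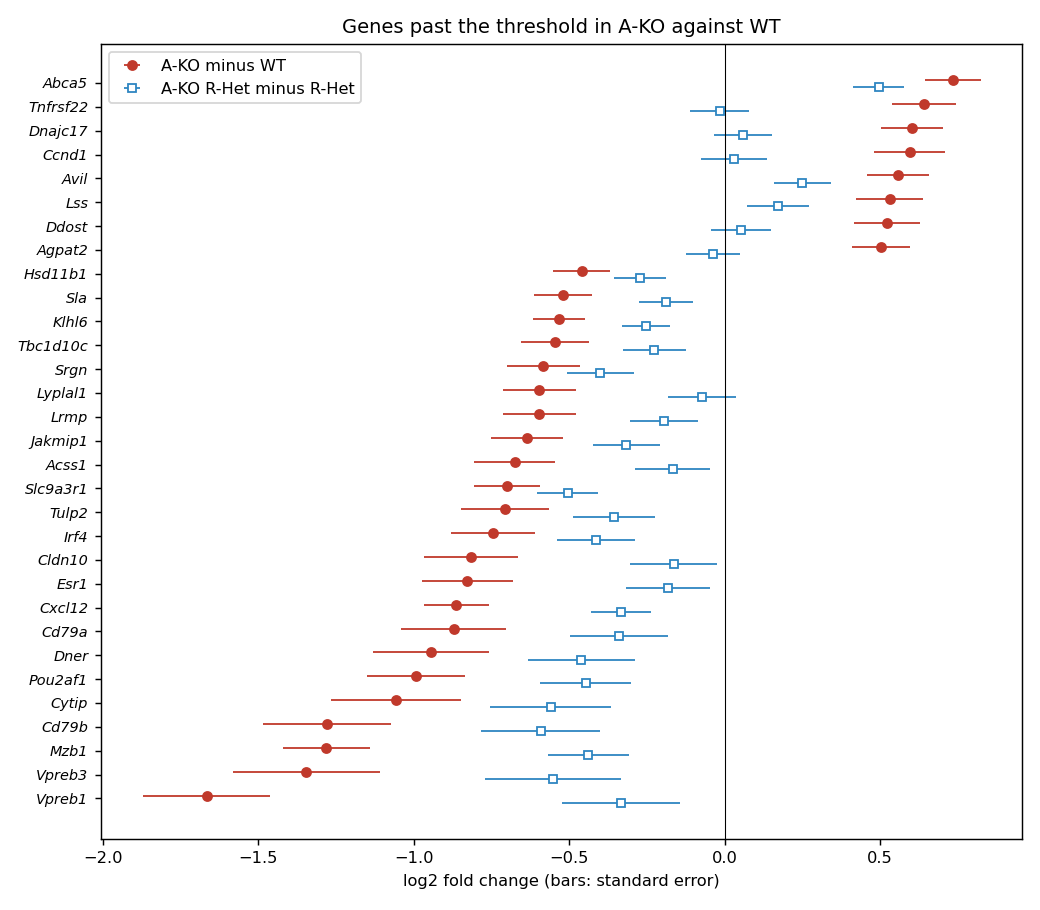
Difference made by Axin2 loss (horizontal axis, log2 fold change, bars are standard errors) for the 31 genes past the threshold in A-KO against WT (filled), with the same genes in A-KO R-Het against R-Het (open). All 23 lower genes lie left of 0 in both comparisons, and Abca5 at 0.50 lies furthest right among the open squares.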

How the data were processed

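Calvarial RNA of 16 mice was measured on 2 Illumina chips of 8 arrays, per the labels. The authors deposited a linear intensity for every probe, normalized beforehand by steps that the sources used here do not state, and log2 of these deposited values was taken. A second table, of scanner signals, was not used because its 32 columns carry numbers that match no sample label. Of 25697 probes, 23978 carry 1 gene symbol, 1719 none and 0 several in the platform annotation. Named probes above the array median on at least 3 of 15 arrays were kept, and of 2505 genes with several such probes the one with the highest mean was used, which left 9918 genes. One mean per genotype was fitted to the 15 arrays in limma 3.58.1 (R 4.3.3) with eBayes, and p-values were adjusted over all genes by Benjamini-Hochberg, with a threshold of 0.05. The procedure was tested on simulated data. The number of arrays limits the precision. Replicate numbers follow record order and pair nothing.

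The text names each gene past the threshold. It also names up to 4 listed genes with the smallest p where a list it describes has none past it, the 10 largest differences each way at an unadjusted p under 0.05, and Axin2 and Ctnnb1. The comparison, its lists and the rule were chosen with earlier results of these data known. Alternatives were chip as a block and each chip alone, the damaged array kept, the 7 arrays alone, quantile normalization, an offset of 16, filters, probe means, another prior, a muscle covariate, and fits without 1 or 3 arrays. Promoters are RefSeq's, of GRCm38.p6.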

Additional observations from a re-analysis of the deposited data

Results flagged for a closer look

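In 8 of 88 named genes and in 1 of 16 list means, 1 WT array stood apart from the other 3. The test was Dixon's ratio of the gap to the whole range, whose critical value chance exceeds in about 1 group of 20. The ratio was 0.981 for Wnt10a and 0.869 for Cldn10, where WT replicate 1 was highest, and 0.907 for Hdc, where WT replicate 2 was highest. It was 0.878 for Cd79a, where WT replicate 3 was highest. The lowest array stood apart for Lss at 0.873 and Sla at 0.893 (WT replicate 3), for Plk1 at 0.882 (WT replicate 4) and for Tulp2 at 0.845 (WT replicate 2). For the mean of the immediate early and handling stress list the ratio was 0.93, with WT replicate 3 lowest. In all 8 genes the A-KO arrays lay outside the range of the WT arrays, the one that stood apart included. The A-KO group of 3 arrays was too small for this test.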

How the results depend on the processing

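No paired analysis was possible because the labels carry no replicate numbers. All of the 31 genes that were tested in a setting kept their direction in it. For fits on 1 chip or without some arrays this was fixed in advance, because no A-KO array overlapped the WT arrays in these genes. The number called moved from 31 to 59 with only the 7 arrays compared, 58 with an intensity trend and robust prior, and 20 with 16 added before log2. It was 6 without WT replicates 1 and 3 and R-Het replicate 4. Among the 7706 genes above the median on all 15 arrays it was 4, and 19 of the 31 were tested there. None of the 7 B cell genes that fell was among those 19, so that setting does not cover them. The number called was 0 on chip 2 alone and with the damaged array, and 4 to 75 when each array was left out in turn. In A-KO R-Het against R-Het and in the interaction it stayed at 0 except for 1 in 1 leave-one-out fit each (range 0 to 1). Of the 31 genes, 20 were among the 59. On the damaged array, 11 of the 23 lower genes lay beyond the WT range in the same direction and 5 in the other, and 7 of the 8 higher genes in the same. The following values changed sign. Axin2 was 0.149 on chip 1. Ctnnb1 was -0.101 on chip 1, -0.024 with probe means, and -0.057 to 0.074 with arrays left out (below 0 without WT replicate 4 or A-KO replicate 4, at -0.018). Pdxdc1, reported at 0.69, was -0.041 with probe means. The destruction complex median was -0.039 on chip 2, -0.01 with probe means, and -0.016 to 0.029 with arrays left out (-0.007 without WT replicate 4). The skeletal muscle median was 0.303 on chip 1, 0.053 with the muscle covariate and -1.366 to 0.242 with arrays left out, the highest without the 3 arrays named above. With arrays left out in turn, the median was 0.046 to 0.177 for Wnt targets, 0.032 to 0.116 for Wnt ligands, receptors and antagonists and 0.025 to 0.114 for the osteoblast list. The causes were not tested.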
